A study of Mus musculus with 6 samples.

Results

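The genes described here carry the output of the circadian clock or modify its proteins: *Dbp*, *Tef*, *Nfil3*, *Bhlhe40*, *Bhlhe41*, *Ciart*, *Csnk1d*, *Csnk1e* and *Fbxl21*. They were chosen by name, and all 9 were among the 16381 genes with a value in the deposited table. The samples were activated ILC2s (aILC2s), group 2 innate lymphoid cells sorted to a purity above 95% from the lungs of wild type BALB/cJ mice, described in the methods as females 6 to 8 weeks old, after 0.5 µg of IL-33 per day for 3 days. Cells of both groups were then cultured for 24 h, 3 samples with 250 µM melatonin and 3 with an equivalent amount of its carrier DMSO (vehicle). The comparison addresses how melatonin, itself a hormone of the night, alters the transcriptome of these cells.

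In the clock, the BMAL1 protein with CLOCK or NPAS2 activates genes through E-boxes, and the PER and CRY proteins that arise from this repress it in turn. Output factors pass the rhythm on. DBP, TEF and HLF, the PAR bZIP factors, activate genes at D-boxes, where NFIL3 represses them, while BHLHE40, BHLHE41 and CIART are repressors that act on the E-box arm. The kinases CK1δ and CK1ε, made from *Csnk1d* and *Csnk1e*, phosphorylate PER proteins and so time their breakdown, and FBXL21 is an F-box protein that binds CRY. NFIL3 is also needed for the development of innate lymphoid cells.

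Estimated counts per library lay between 17056239 and 20511667. No library matched another within sampling noise, with a chi-square per degree of freedom of at least 6.36 within groups. The labels do not say whether the samples came from separate animals or cultures. The p-values thus measure the spread between these samples, which may be technical. In melatonin it was not wholly so, since replicate 1 differed from replicates 2 and 3 in *Ddx3y* and *Xist*, given below. Melatonin libraries carried the numbers 20 to 22 and vehicle libraries 32 to 34. Only the vehicle names also had v1 after the number, and its meaning is not given. A batch that followed these names and the treatment thus cannot be told apart. Although females are described, the Y-linked *Ddx3y* was at 1071 normalized counts in melatonin replicate 1 and between 746 and 907 in vehicle, and at 0 in melatonin replicates 2 and 3. *Xist*, transcribed from the inactive X chromosome, was at 579 and 1092 in those latter libraries and at 0 in melatonin replicate 1, against 13.6, 7.46 and 5.81 in vehicle. All 3 vehicle libraries thus had *Ddx3y*, and 2 of 3 melatonin libraries had *Xist* at a high level without it, so that without melatonin replicate 1 this difference and the treatment cannot be told apart. Its part in the results was not tested. None of the 9 genes lies on a sex chromosome. All 11 ILC2 markers were listed, with *Gata3* at 19365 ± 321 (SD, n = 3) normalized counts in vehicle and 20469 ± 3605 in melatonin. The 11 markers summed to between 138100 and 145300 in vehicle and between 109500 and 111700 in melatonin, where 6 of them were called lower, among them *Klrg1* and *Thy1*, and 2 higher. Markers of most other cell types also summed lower with melatonin. The 6 myeloid markers summed to between 1452 and 1649 in vehicle and to 364, 818 and 845 in melatonin replicates 1, 2 and 3. For NK cells (4 of 4 markers listed, *Klrb1c* at 0 in every melatonin library) the sum was 165 to 201 against 7.65 to 9.34, and for T cells (3 of 6 listed) 206 to 252 against 40.4 to 120. Most of the T cell sum was *Cd3e*, at 192 to 226 in vehicle and 39.2 to 117 in melatonin. Lung epithelium and stroma (5 of 8 listed, *Krt8* at 0 in melatonin) gave 1943 to 3174 against 1394 to 1546, with 4 markers called lower and *Epcam*, at 667 in vehicle and 1097 in melatonin on average, called higher. Among the lower, *Scgb1a1* was at 95.2, 21.6 and 1045 in vehicle and at 1.01 or less in melatonin, and *Sftpc* was between 122 and 389 against 3.02 to 6.54. For B cells, 1 of 4 markers was listed, at 9.33 or less in every library, and for granulocytes and mast cells 3 of 5, summing to 37.2 or less. The part of these other cells in the results below was not tested. In such bulk samples, fewer cells of a type and less RNA per cell cannot be told apart.

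The windows of 300 bases before the start of the canonical transcript of each gene were searched on both strands. The motifs were an E-box (CACGTG), a D-box (TTANGTAA) and a short pattern for the ROR element (TNGGTCA). The ROR and REV-ERB receptors compete at this element. The pattern is looser than the full element, as it leaves the second base open and ignores the bases before it. A single start per gene was used, and other starts were not searched. The canonical start is the outer end of the gene for *Dbp*, *Bhlhe40*, *Csnk1d* and *Hlf*. For *Tef*, *Nfil3*, *Csnk1e* and *Ciart* it lies 8993, 1643, 13418 and 435 bases inside the gene, so the window lies within the gene, and for *Bhlhe41* and *Fbxl21* it lies 132 and 58 bases inside. Of the 10 windows, 4 held a match. The 30 bases around each match, or around a pair of neighbouring matches, are printed 5′ to 3′ on the strand of the gene with the matches in capitals, since the genes differ in which motif they hold. They lie in GRCm39 at chr3:95789639-95789668 and chr3:95789574-95789603 on the minus strand for *Ciart*. On the plus strand they lie at chr7:45354267-45354296 and chr7:45354312-45354341 for *Dbp*, chr15:81695385-81695414 and chr15:81695465-81695494 for *Tef* and chr6:108636392-108636421 for *Bhlhe40*. None of the matches overlapped another.
Ciart first stretch: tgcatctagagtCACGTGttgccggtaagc
Ciart second stretch: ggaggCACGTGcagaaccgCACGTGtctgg
Dbp first stretch: ttggcccgaagTGGGTCAcggtcccgcctc
Dbp second stretch: ttggccaaataTAGGTCAgtgtcccgcctt
Tef first stretch: agggacgcgacTGACCAAaaaagaacaggg
Tef second stretch: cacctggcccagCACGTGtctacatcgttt
Bhlhe40: ccgcgtccgggcCACGTGaagcgtcacgcc
The window of *Ciart* held 3 E-boxes, starting 100, 42 and 28 bases before the canonical start. *Tef* and *Bhlhe40* held 1 each, starting 138 and 222 bases before it. *Dbp* held 2 matches to the ROR element pattern, starting 234 and 189 bases before its start. *Tef* held 1 at 219 bases, read on the other strand as TTGGTCA, with T at the open base. No D-box was found in any of them, and the windows of *Nfil3*, *Bhlhe41*, *Csnk1d*, *Csnk1e*, *Fbxl21* and *Hlf* held none of the motifs. Among 21756 such windows of protein-coding genes, 6.95% held an E-box, 2.59% a D-box and 10.7% the ROR element pattern. There, 13 windows (0.0598%) held 3 or more E-boxes. A match describes the letters only.

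**Figure D1:**
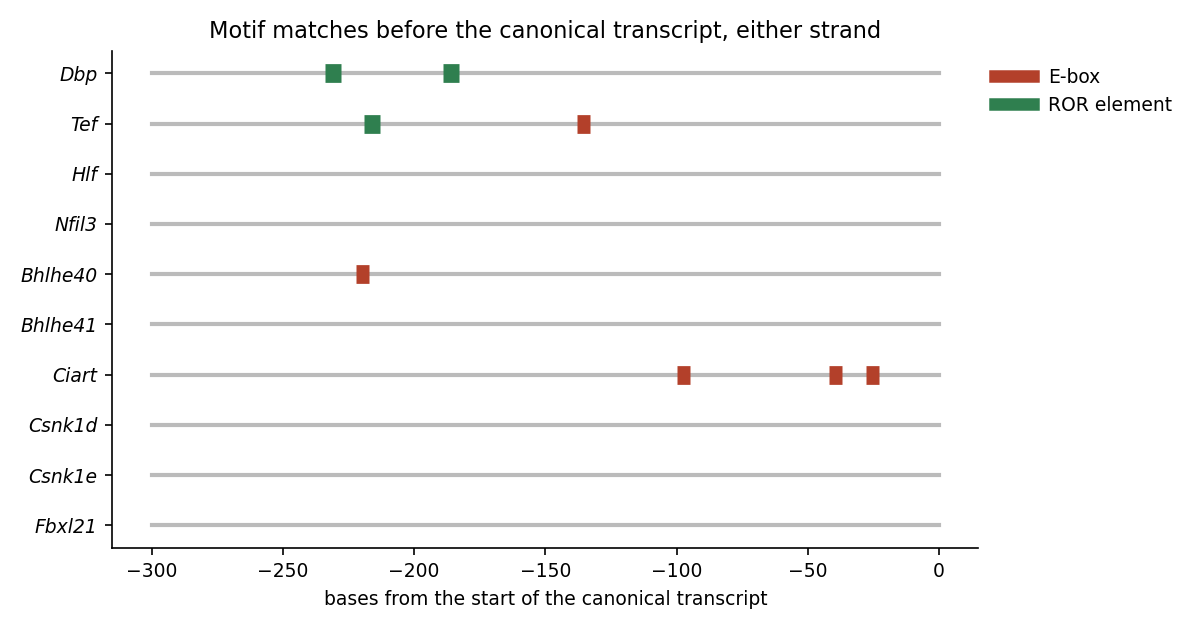
Matches to the E-box and the loose ROR element pattern in the 300 bases before the canonical transcript of the 9 genes and of *Hlf*, with position in bases from its start on the x axis and other starts not searched. *Ciart* holds 3 E-boxes within 100 bases of this start, and 6 of the 10 windows hold no match.

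Of the 9 genes, 8 reached 10 normalized counts in at least 1 sample and were tested with limma after adding 1 and taking log2. *Fbxl21* passed this filter through its melatonin values alone. With melatonin, 3 were higher (*Fbxl21*, *Csnk1d* and *Tef*), 1 was lower (*Ciart*) and 4 were not called at an adjusted p-value of 0.05. Over all 14419 genes tested, 24.5% were called higher and 24.7% lower, so 4 of 8 stands beside a background of 49.2%. The groups did not overlap for the same 4 genes, 3 higher and 1 lower, where 60.4% of all genes tested did not overlap, 30.0% higher and 30.3% lower. The median log2 fold change of the 8 genes was −0.12, and that of all genes tested was −0.00. For a single value, exact permutation of 3 against 3 samples cannot reach below p = 0.1 (two-sided).

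**Figure D2:**
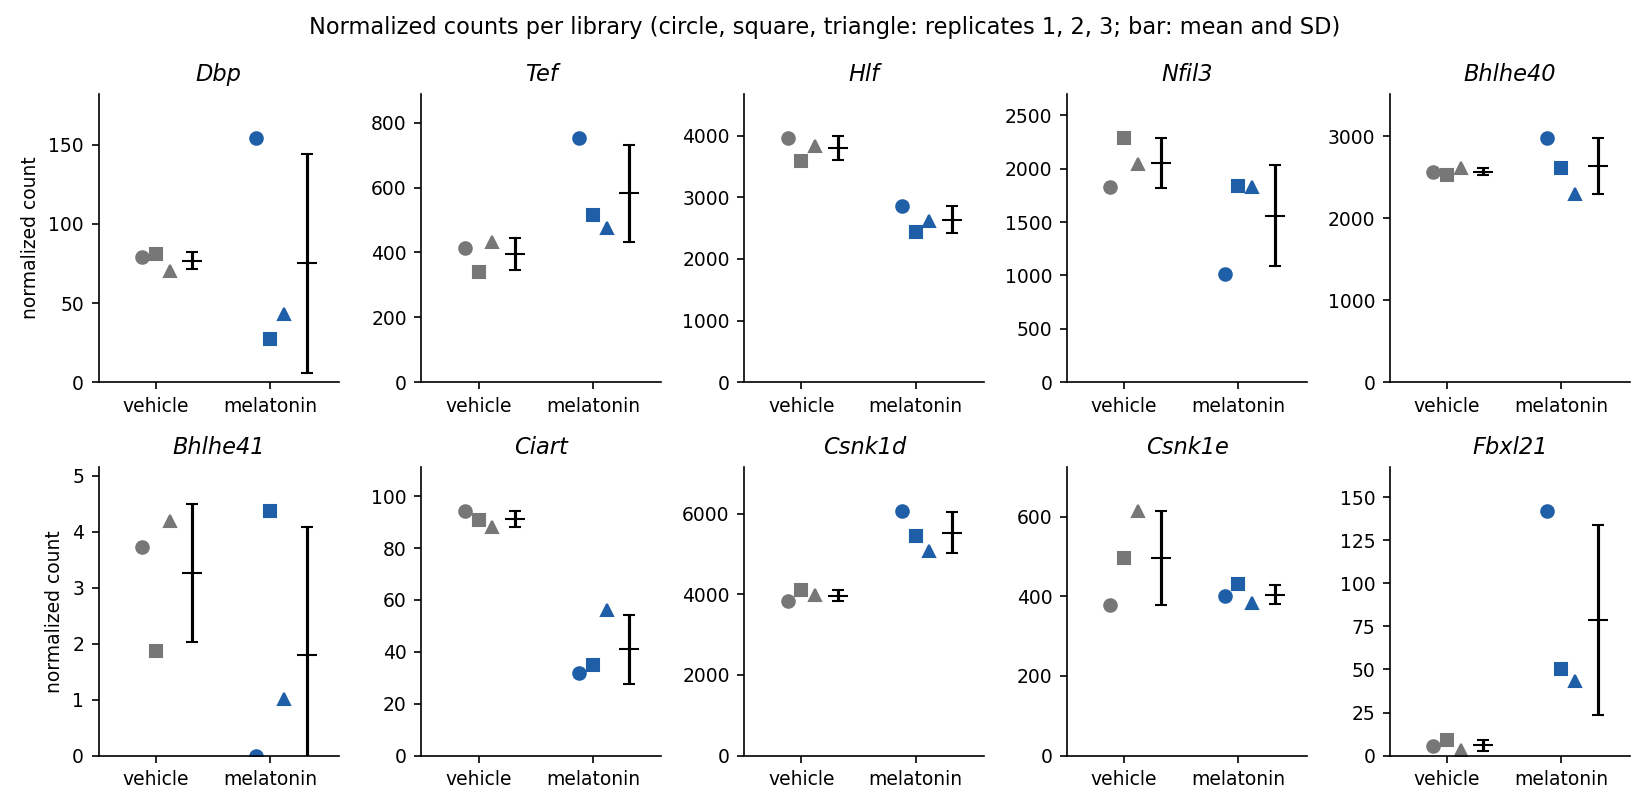
Normalized counts of the 9 genes and of the related *Hlf* in each library, with the mean and SD of each group beside the points (the lower bar of *Bhlhe41* in melatonin is cut at 0). *Csnk1d* and *Fbxl21* lie higher and *Ciart* lower in every melatonin library, while for *Dbp* melatonin replicate 1, at 155, lies above and the other melatonin libraries below the vehicle range.

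Among the output factors, *Dbp* (ENSMUSG00000059824, chromosome 7, 45354512 to 45359627) encodes a PAR bZIP activator known for one of the steepest rhythms of the clock output genes. Its normalized counts were 78.9, 80.7 and 70.5 in vehicle and 155, 27.2 and 43.3 in melatonin replicates 1, 2 and 3. The vehicle libraries were close together, and the melatonin libraries lay on either side of them. The group means of 76.7 ± 5.47 (SD, n = 3) and 75.1 ± 69.4 were therefore alike although no melatonin library was near its mean. The log2 fold change was −0.42 (SE 0.53, adjusted p = 0.534 by limma, 95% interval −1.62 to 0.78). Without melatonin replicate 1 it was −1.13, and *Dbp* was called lower (adjusted p = 0.00739 by limma). The lowest value rested on an estimated 24.9 counts, so counting error alone is wide there. Of its 1837 transcript bases, 539 overlap exons of *Sphk2* on the opposite strand, which was higher with melatonin by 0.44 on the log2 scale, and the library kit does not mark strand.

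*Tef* (ENSMUSG00000022389, chromosome 15, 81686622 to 81711064), the PAR bZIP factor with an E-box and a match to the ROR element pattern in its window, was at 413, 338 and 431 normalized counts in vehicle and at 755, 517 and 476 in melatonin replicates 1, 2 and 3. Every melatonin value was above every vehicle value. The mean was 394 ± 49.4 in vehicle and 583 ± 150 in melatonin, a log2 fold change of 0.54 (SE 0.18, adjusted p = 0.034 by limma). The call was lost without melatonin replicate 1, where the log2 fold change was 0.34 (adjusted p = 0.0567 by limma), and in each of the 3 fits without a vehicle library, where the limma adjusted p was between 0.0521 and 0.124. Correcting for transcript length, an alternative added late with the data in view, also ended it (0.41, adjusted p = 0.0766 by limma). The correction for GC content, added in the same way, kept it (0.64, adjusted p = 0.0155 by limma).

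*Hlf*, the remaining PAR bZIP gene, is not one of the 9 and was listed with them as the rest of the D-box family. It was at 3968, 3586 and 3826 normalized counts in vehicle and at 2865, 2428 and 2618 in melatonin. The groups did not overlap. It fell by 0.53 on the log2 scale (SE 0.09, adjusted p = 0.0013 by limma), and it was called lower at an adjusted p of 0.05 in each of the 19 alternative fits. The PAR bZIP genes thus did not move in a single direction, with *Hlf* lower, *Tef* higher in the fit of all samples and *Dbp* split.

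*Nfil3* (ENSMUSG00000056749, chromosome 13, 53121245 to 53137010), the repressor at the same D-boxes, was at 1825, 2293 and 2041 normalized counts in vehicle and at 1013, 1834 and 1833 in melatonin replicates 1, 2 and 3. Melatonin replicate 1 was apart at the low end, and the other melatonin libraries lay just inside the lower end of the vehicle range. The log2 fold change was −0.44 (SE 0.21, adjusted p = 0.114 by limma, 95% interval −0.92 to 0.04). Without melatonin replicate 1 it was −0.16 (adjusted p = 0.211 by limma).

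*Dbp*, *Tef* and *Nfil3* all placed melatonin replicate 1 apart from melatonin replicates 2 and 3. Its *Dbp* value was 4.39 times and its *Tef* value 1.52 times the mean of the other melatonin libraries, and its *Nfil3* value was 0.553 times that mean. On this measure, 0.485% of all genes tested had a higher value than *Dbp*, 8.23% a higher value than *Tef* and 6.73% a lower value than *Nfil3*. Genes of the REV-ERB receptors, which the core loop drives together with *Dbp*, were high in the same library. In melatonin replicates 1, 2 and 3, *Nr1d1* had 836, 241 and 199 normalized counts, against 286, 250 and 297 in vehicle. *Nr1d2* was at 2043, 1189 and 1182 in melatonin and between 700.0 and 737 in vehicle. *Nr1d1* therefore had the split pattern of *Dbp*, and *Nr1d2* the pattern of *Tef*, higher in every melatonin library and highest in replicate 1. For *Nr1d1*, melatonin replicates 2 and 3 lay nearer the vehicle range than for *Dbp*. Without melatonin replicate 1, *Nr1d1* was at −0.34 and not called (adjusted p = 0.0792 by limma). *Fbxl21* was at 3.04 times the mean of the other melatonin libraries, with 1.23% of genes tested higher. *Ciart*, at 0.696 times, and *Bhlhe40*, at 1.21 times that mean, departed less. The same library was the one with Y-linked transcripts among the melatonin samples. It had the lowest sum of myeloid markers, at 364 against 818 and 845, and the highest of T cell markers, at 120 against 40.4 and 46.2. *Cd3e* made up most of this T cell sum, at 117, 40.4 and 39.2 in melatonin replicates 1, 2 and 3, while *Cd3d* was highest in replicate 3. The part of these differences in the values was not tested.

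**Figure D3:**
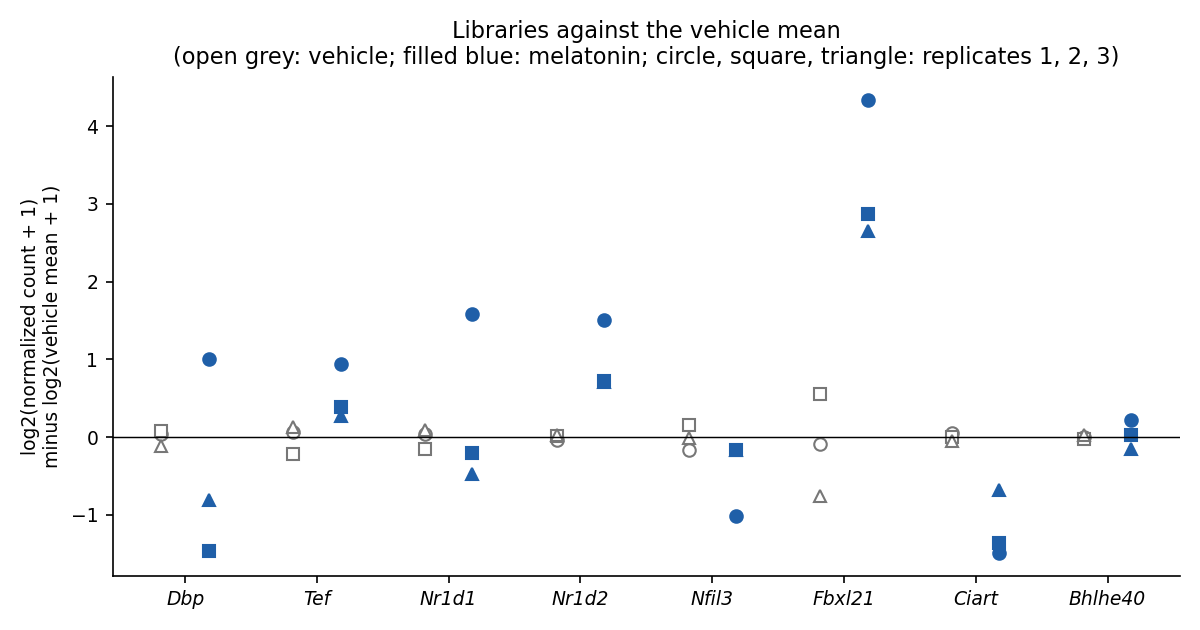
Each library's log2(normalized count + 1) minus that of the vehicle mean for 6 of the 9 genes and for *Nr1d1* and *Nr1d2*. Melatonin replicate 1 (filled circles) is the highest library for *Dbp*, *Tef*, *Nr1d1*, *Nr1d2*, *Fbxl21* and *Bhlhe40* and the lowest for *Nfil3* and *Ciart*.

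*Nfil3* was set against *Dbp* and against *Tef* within each library. Levels are given per kb of the canonical transcript, and the tests used the log2 ratio of normalized counts with 1 added, which is not corrected for length. Per kb, *Nfil3* exceeded *Dbp* 18.6-fold, 22.8-fold and 23.3-fold in vehicle and 5.27-fold, 54.2-fold and 34.0-fold in melatonin replicates 1, 2 and 3. The mean log2 ratio of counts differed by −0.02 between groups (exact two-sided permutation p = 1), since melatonin replicate 1 lay below and the others above the vehicle range. Without melatonin replicate 1 the difference was 0.98. Per kb, *Nfil3* exceeded *Tef* 8.20-fold, 12.6-fold and 8.79-fold in vehicle and 2.50-fold, 6.60-fold and 7.15-fold in melatonin. The mean log2 ratio of counts was 2.38 ± 0.33 (SD, n = 3) in vehicle and 1.40 ± 0.84 in melatonin, a difference of −0.98 with no overlap between the groups (exact permutation p = 0.1, the smallest possible, adjusted over 4 ratios 0.2). Without melatonin replicate 1 the difference was −0.50, and without any other single library it was between −1.25 and −0.79. These ratios leave out *Hlf*. Ratios to *Hlf* were added after the values were seen, and no test was made of these added ratios. Per kb, *Nfil3* was at 1.17, 1.63 and 1.36 times *Hlf* in vehicle and at 0.902, 1.93 and 1.78 times in melatonin replicates 1, 2 and 3. Against *Dbp*, *Tef* and *Hlf* summed per kb it was at 0.972, 1.36 and 1.12 times in vehicle and at 0.588, 1.45 and 1.37 times in melatonin. With *Hlf* counted, the groups overlapped.

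**Figure D4:**
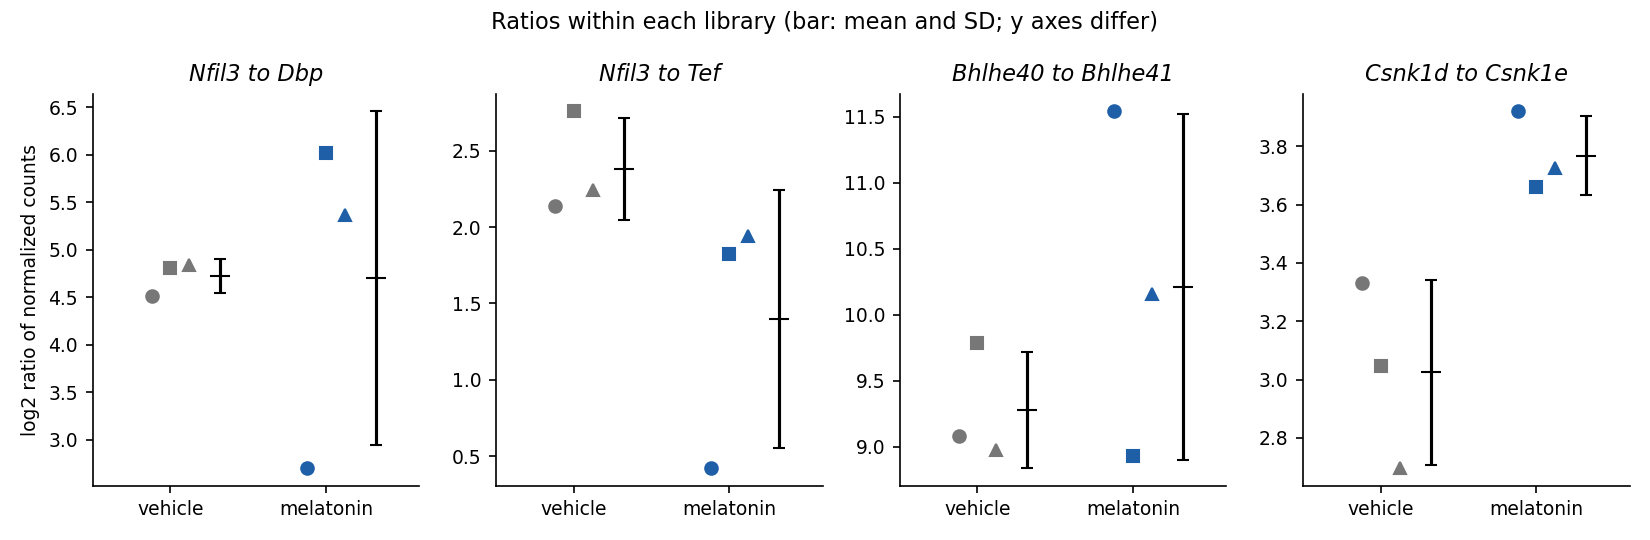
Log2 ratios of normalized counts (1 added, not corrected for length) within each library for the 4 pairs compared, with group means and SDs. The groups do not overlap for *Nfil3* to *Tef* and for *Csnk1d* to *Csnk1e*, and the ratio to *Bhlhe41* rests on 0 to 4 estimated counts of that gene.

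*Ciart* (ENSMUSG00000038550, chromosome 3, 95785815 to 95789991) encodes CHRONO, a repressor that binds BMAL1, and has the 3 E-boxes printed above. It was at 94.3, 90.9 and 88.1 normalized counts in vehicle and at 31.7, 35.0 and 56.3 in melatonin replicates 1, 2 and 3. The vehicle libraries were within a few counts of one another, and all melatonin libraries were lower. The means were 91.1 ± 3.08 and 41.0 ± 13.3, so *Ciart* was lower, with a difference of −1.18 on the log2 scale (SE 0.25, adjusted p = 0.00521 by limma). The call held with each library left out in turn, with log2 fold changes between −1.42 and −1.02.

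*Bhlhe40* (ENSMUSG00000030103, chromosome 6, 108636626 to 108644502), an E-box repressor that is also induced by activation in lymphocytes, was at 2560, 2529 and 2611 normalized counts in vehicle and at 2983, 2616 and 2298 in melatonin replicates 1, 2 and 3. The melatonin libraries surrounded the narrow vehicle range. The log2 fold change was 0.03 (SE 0.10, adjusted p = 0.831 by limma), with a 95% interval from −0.20 to 0.25, and its sign changed under upper quartile scaling, under the correction for transcript length and without melatonin replicate 1. Its paralog *Bhlhe41* (ENSMUSG00000030256, chromosome 6, 145803969 to 145811430) was at 3.73, 1.87 and 4.2 normalized counts in vehicle and at 0, 4.37 and 1.01 in melatonin. These values are 4, 2 and 4 and 0, 4 and 1 estimated counts, around a floor set here at 3 counts by choice, and *Bhlhe41* was not tested. Per kb, *Bhlhe40* was on average at 547 in vehicle and *Bhlhe41* at 0.532. The log2 ratio of their counts with 1 added differed between groups by 0.93 on the log2 scale (exact permutation p = 0.4) and moved to 2.04 with a pseudocount of 0.1.

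*Csnk1d* (ENSMUSG00000025162, chromosome 11, 120843823 to 120882172), the gene of CK1δ, had the highest normalized counts of the 9. It was at 3822, 4097 and 3985 normalized counts in vehicle and at 6062, 5447 and 5067 in melatonin replicates 1, 2 and 3. Every melatonin value was above every vehicle value by a wide margin. The mean rose from 3968 ± 138 to 5525 ± 502, 1.39-fold, with a log2 fold change of 0.47 (SE 0.09, adjusted p = 0.00212 by limma). The call held in all fits that left out a library, with log2 fold changes between 0.41 and 0.53. Of its 2365 transcript bases, 832 overlap exons of *Slc16a3*, a lactate exporter on the opposite strand, so their reads cannot be told apart. *Slc16a3* went the other way, from 3883 ± 179 in vehicle to 2669 ± 412 in melatonin.

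*Csnk1e* (ENSMUSG00000022433, chromosome 15, 79302046 to 79339771), the gene of CK1ε, was at 379, 496 and 614 normalized counts in vehicle and at 400, 430 and 382 in melatonin. The melatonin libraries were close together inside the lower part of a wide vehicle range. The log2 fold change was −0.27 (SE 0.17, adjusted p = 0.208 by limma, 95% interval −0.65 to 0.11), and without vehicle replicate 1 it was −0.45 and called (adjusted p = 0.038 by limma). Per kb, *Csnk1d* exceeded *Csnk1e* 6.58-fold, 5.39-fold and 4.23-fold in vehicle and 9.89-fold, 8.25-fold and 8.65-fold in melatonin. The difference in mean log2 ratio of counts was 0.74 with no overlap (exact permutation p = 0.1, adjusted over 4 ratios 0.2), and it stayed between 0.58 and 0.90 with each library left out. The canonical transcripts of the 2 genes share no stretch of 25 bases, the shortest read kept by the authors.

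*Fbxl21* (ENSMUSG00000035509, chromosome 13, 56670263 to 56689586) changed most of the 9. It was at 5.60, 9.37 and 3.15 normalized counts in vehicle, an estimated 6, 10 and 3 counts, and at 142, 50.3 and 43.2 in melatonin replicates 1, 2 and 3, an estimated 152, 46 and 43. The gene was near the floor in vehicle, and its lowest melatonin value was still above 4 times its highest vehicle value. The mean rose 13.0-fold from 6.04 ± 3.13 to 78.5 ± 55.1, a log2 fold change of 3.39 on the scale with 1 added (SE 0.53, adjusted p = 0.00103 by limma). Without melatonin replicate 1 the mean rose 7.74-fold, to 46.7, and the log2 fold change was 2.86 (adjusted p = 0.00184 by limma). Since the filter let it in by the group in which it was high, it was also fitted with no filter, which gave 3.39 (adjusted p = 0.000958 by limma over 16381 genes). Of its 5952 transcript bases, 602 overlap exons of *Lect2* on the opposite strand, which had no listed value.

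Levels were compared between genes as normalized counts per kb of the canonical transcript. In vehicle, *Csnk1d* came first at 1678 ± 58.4 (SD, n = 3), followed by *Nfil3* at 899 ± 102, *Hlf* at 651 ± 33.2, *Bhlhe40* at 547 ± 8.89 and *Csnk1e* at 322 ± 76.1. *Tef* at 92.9, *Ciart* at 46.1 and *Dbp* at 41.8 came next, and *Fbxl21* at 1.01 and *Bhlhe41* at 0.532 overlapped at the end. Among these neighbours only the last pair overlapped in its values. In melatonin, *Fbxl21* reached 13.2 per kb and overlapped with *Ciart* at 20.7, which overlapped with *Dbp* at 40.9, and *Nfil3* overlapped with *Bhlhe40* and *Bhlhe40* with *Hlf*. The order depends on the transcript assumed. With the longest coding transcript of each gene, *Csnk1d* in vehicle was at 827 and overlapped with *Nfil3* at 729, and *Csnk1e* at 91.8 overlapped with *Tef*.

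The other genes of the pathway were read from the same fit. Of 21 other modifiers of clock proteins, 5 were higher and 9 lower with melatonin (backgrounds of 24.5% and 24.7%), with a median log2 fold change of −0.14. All 3 subunit genes of casein kinase 2, another kinase of clock proteins, were lower, *Csnk2a1* at −0.75, *Csnk2a2* at −1.16 and *Csnk2b* at −0.99. *Csnk2b* fell from 3142 ± 223 to 1585 ± 191 normalized counts (adjusted p = 0.000167 by limma). Other members of the casein kinase 1 family moved apart, with *Csnk1a1* at −0.31 and *Csnk1g1* at −0.48 lower and *Csnk1g3* at 1.16 and *Csnk1g2* at 1.08 higher, the latter from overlapping values (592 to 1966 normalized counts in vehicle, 1747 to 3189 in melatonin). *Btrc* and *Fbxw11*, the genes of the β-TrCP proteins that recognise phosphorylated PER, were higher at 0.32 and 0.36. *Prkaa2* was higher at 2.02, from 0.933, 1.87 and 5.25 normalized counts in vehicle to 18.7, 12.0 and 8.04 in melatonin, and passed the filter through melatonin values alone (adjusted p = 0.0194 by limma with no filter). The ubiquitin ligase gene *Huwe1* (−0.64), the deubiquitinase gene *Usp7* (−0.48) and the phosphatase genes *Ppp5c* (−0.42) and *Ppp1ca* (−0.25) were lower. *Gsk3a*, *Gsk3b*, *Prkaa1*, *Ppp1cb*, *Ppp1cc*, *Ppp2ca* and *Usp2* were not called. Several calls were lost in fits that left out a single library. *Csnk1g2* and *Prkaa2* lost theirs without melatonin replicate 1 or 2 or vehicle replicate 1 or 2, with adjusted p by limma up to 0.113 and 0.0793. *Btrc* was called only without melatonin replicate 1 among these fits (up to 0.144). *Csnk1g1* was called only without melatonin replicate 1 or 3 (up to 0.122). *Ppp1ca* lost its call without any of the vehicle libraries (up to 0.143), and *Fbxw11* lost it without vehicle replicate 1 (0.0614).

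Of 12 genes of the core loop, 5 were higher (*Bmal1*, *Npas2*, *Cry2*, *Nr1d2* and *Rora*) and 4 lower (*Per1*, *Per2*, *Per3* and *Cry1*), beside 24.5% and 24.7% of all genes tested, with a median log2 fold change of 0.47. *Per3* was at 47.6, 49.7 and 50.4 normalized counts in vehicle and at 29.9, 16.4 and 8.04 in melatonin. *Cry1* had a log2 fold change of −0.36 (adjusted p = 0.0372 by limma) but was no longer called with any single library left out other than melatonin replicate 2, at adjusted p between 0.0548 and 0.123. *Clock*, *Nr1d1* and *Rorb* were not called.

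**Figure D5:**
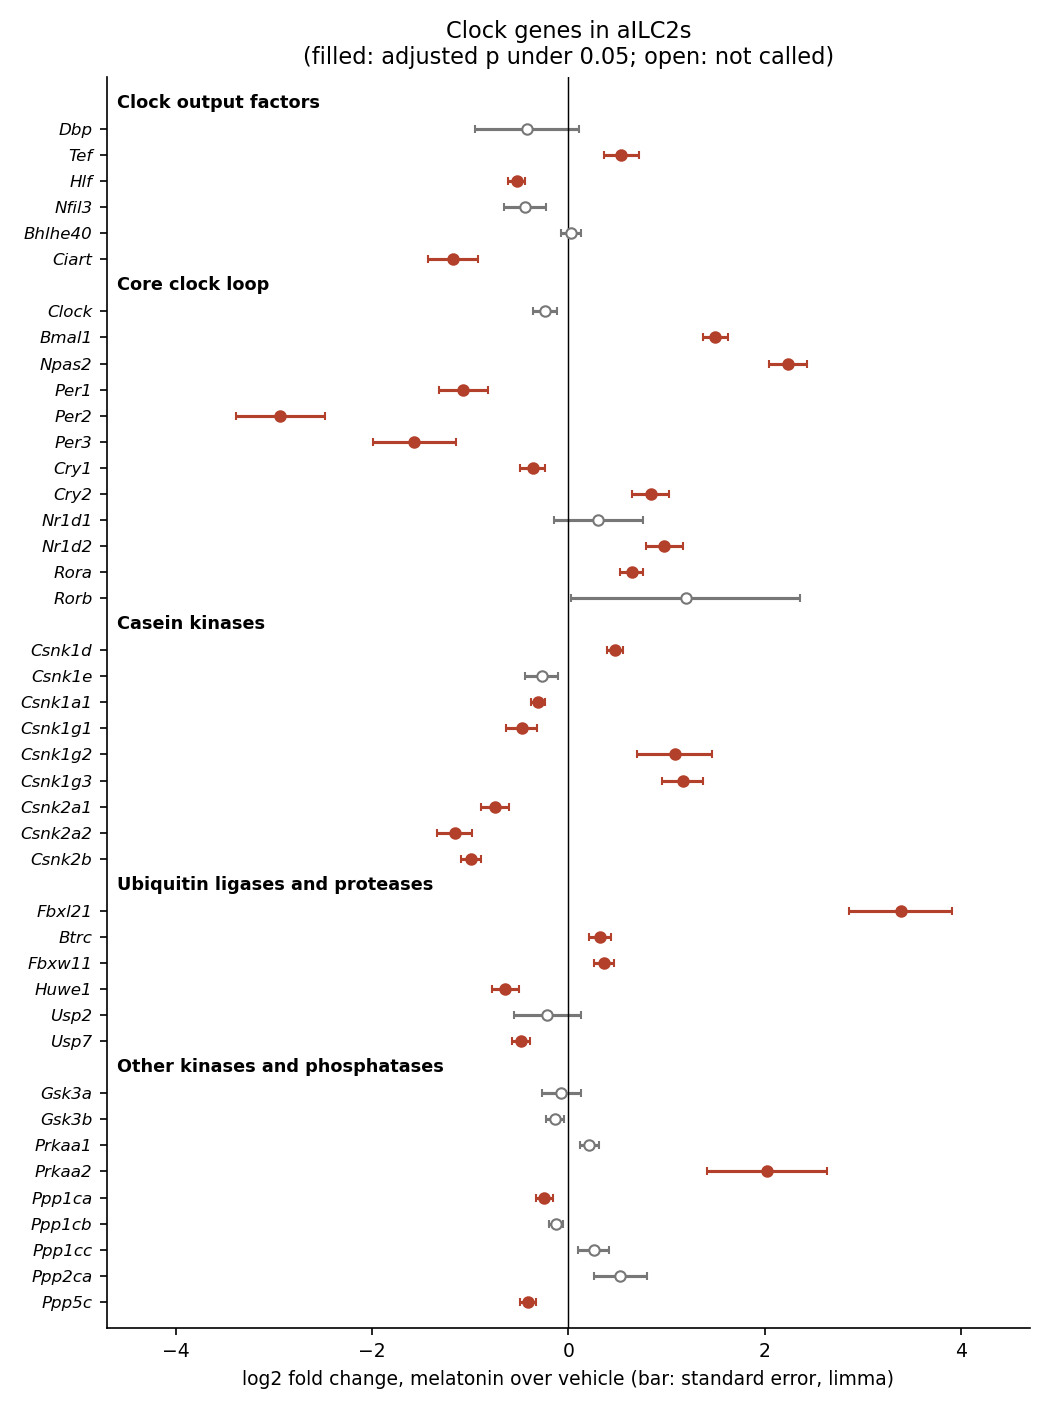
Log2 fold changes with standard errors from limma for the 8 tested genes, *Hlf*, the core loop and the other clock protein modifiers. *Fbxl21* at 3.39 lies farthest from 0, and *Csnk1d* at 0.47 lies opposite the casein kinase 2 genes.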

How the data were processed

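RNA was measured in 3 melatonin and 3 vehicle samples of aILC2s. The authors used Partek Flow for read trimming, STAR alignment to mm39 and E/M quantification against Gencode M33, dropped genes under 10 counts, and applied median ratio scaling from DESeq2. What they deposited is a signal per gene, here called normalized counts, in which each estimated count was divided by its library's size factor. Since the algorithm divides reads among genes, 64.2% of non-zero values were whole multiples of a single read at a tolerance of 0.01, and whole reads were not recovered. For that reason limma was used in place of a count test. Estimated counts are the values divided by that of a single read in the sample.

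limma 3.58.1 in R 4.3.3 (eBayes with a trend, treatment as the term) was fitted to log2(normalized count + 1) of the 14419 genes reaching 10 in any sample, with Benjamini-Hochberg adjustment over these genes and a threshold of 0.05. The scale understates fold changes of low genes. The script was tested on simulated data. Ratios between genes were compared by exact permutation with scipy 1.17.1. Names and GRCm39 positions came from Gencode M39, which named 16334 of 16381 genes, and promoter windows from the GRCm39 genome. The genes named by rule are the 9 genes, the called genes of the 2 pathway lists and, for the 2 of the 9 with the highest normalized counts, the 3 genes with the highest correlation. Genes of the lists that were not called, *Hlf*, antisense partners, cell type markers and the neighbours of *Fbxl21* are named beside them. Members, lists and rules were chosen with earlier results of these data known. A few items of the pathway are not reported here. Alternatives were pseudocounts of 0.1 and 10, other filters, scalings, variance models, voom, the replicate number as a block, stricter thresholds and each sample left out. Corrections for transcript length and GC content were added after the data had been seen.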

Additional observations from a re-analysis of the deposited data

How the results depend on the processing

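Over all genes, scaling moved the median log2 fold change by at most 0.05, to −0.05 under upper quartile scaling. *Csnk1d* and *Ciart* kept their calls at an adjusted p of 0.05 in every fit that included them, as did *Fbxl21*, which passes the filter through melatonin values alone and was also called with no filter. Its log2 fold change was 2.31 with a pseudocount of 10 and 3.82 under quantile normalization, against 3.39. *Csnk1d* and *Tef* fell short where a log2 fold change of at least 1 was also asked (0.47 and 0.54). *Tef* was not called under upper quartile scaling (0.49), quantile normalization (0.46), without the trend (0.54), after the length correction (0.41) or at an adjusted p of 0.01 (0.54). *Dbp* was called under sample weights (−0.98) and was positive without melatonin replicate 2 (0.10). *Bhlhe40* was negative under upper quartile scaling (−0.022), the length correction (−0.11) and without melatonin replicate 1 (−0.066). *Nr1d1* turned negative under sample weights (−0.032) and without melatonin replicate 1 (−0.34), *Gsk3a* turned positive without vehicle replicate 3 (0.13) and *Usp2* under quantile normalization (0.064). The cause was not tested.

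Omitting single samples gave log2 fold changes between −1.13 and 0.10 for *Dbp*, 0.34 and 0.67 for *Tef*, −0.066 and 0.12 for *Bhlhe40*, −0.45 and −0.10 for *Csnk1e*, −0.34 and 0.70 for *Nr1d1* and −0.32 and 0.13 for *Gsk3a*. The members called lower were then 1 to 2, and the other modifiers called higher 1 to 5, the latter 3 without melatonin replicate 1, 2 without melatonin replicate 2 or vehicle replicate 2 and 1 without vehicle replicate 1. Over all genes, 3454 of 14293 were higher and 3619 lower without melatonin replicate 1. Without vehicle replicate 1, 2747 of 14289 were higher and 2713 lower. Higher were 2886 of 14342 without melatonin replicate 2 and 2770 of 14335 without vehicle replicate 2.

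Of the 9 genes, 2 were called lower under sample weights and under the replicate block, 0 where the mean had to reach 100 (a filter that removes *Ciart*), and 1 was called higher with a log2 fold change of at least 1. Over all genes, 3926 of 14419 were lower under sample weights, 3278 of 14419 under the block and 2667 of 9990 where the mean had to reach 100. For the core loop, 2 were higher with a log2 fold change of at least 1, 1 was lower where the mean had to reach 100, and 2 were lower at an adjusted p of 0.01. For the other modifiers, 3 were called higher under upper quartile scaling, without the trend and at a log2 fold change of at least 1, 2 after the length correction and under the block, and 1 at an adjusted p of 0.01, and 1 was called lower at a log2 fold change of at least 1. Over all genes, 3155 of 14419 were higher under upper quartile scaling, 3006 without the trend and 3160 under the block, and 3393 of 14391 after the length correction. Shares over all genes at the stricter thresholds are not given here. The ratio of *Bhlhe40* to *Bhlhe41* moved to 2.04 with a pseudocount of 0.1.

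Samples with the same replicate number did not deviate together (correlations of −0.05, 0.01 and −0.05 across genes), and no sample correlated best with its own number. These correlations gave no sign that the numbers pair the samples, but with 3 samples per group they cannot exclude it. With the replicate number as a block, 3160 genes were higher and 3278 lower against 3529 and 3565 without it, and *Nfil3* was called at −0.44 (limma adjusted p = 0.0444).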

Other observations

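The genes with values most like those of the 2 with the highest normalized counts of the 9, uncorrected for length, were found among the 9990 genes whose mean reached 100, by the Pearson correlation over 6 samples. In a design with 2 groups, any gene that separates them correlates, so these values are a description. For *Csnk1d* they were *Fam13b* (0.999), *Tmem241* (0.999) and *Arhgef3* (0.999), each higher with melatonin and highest in melatonin replicate 1. *Arhgef3* was at 2392, 1757 and 1494 normalized counts in melatonin and at 700.0, 782 and 769 in vehicle. For *Bhlhe40* they were *Xlr3b* (0.989), *Gga1* (0.983) and *Espl1* (0.982), with log2 fold changes of 0.03, 0.00 and −0.00. *Espl1*, the gene of separase, was at 1530, 1442 and 1324 in melatonin and between 1424 and 1436 in vehicle.

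The neighbourhood of *Fbxl21* was looked at after its value had been seen. Within 500 kb, 6 other genes were listed, and they did not move together. *Macroh2a1*, whose start lies 379 kb before that of *Fbxl21*, rose from between 465 and 505 to between 4896 and 5849 normalized counts, a log2 fold change of 3.49. *Tifab*, 343 kb before it, had a log2 fold change of −1.82. The cytokine gene *Il9*, 40.2 kb before it, was at 441, 462 and 511 in vehicle and at 526 and 510 in melatonin replicates 2 and 3, but at 5.60 in melatonin replicate 1, the library in which *Fbxl21* was highest. *Smad5*, 181 kb after it, had a log2 fold change of 0.39 and was not called (limma adjusted p = 0.128).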
